A study of Mus musculus with 778 samples.

Results

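The 10 genes described here encode TBP and its 2 relatives in the mouse (Tbp, Tbpl1 and Tbpl2), 6 subunits of the general transcription factor TFIID (Taf1, Taf3, Taf4a, Taf4b, Taf7 and Taf9b) and the large subunit of TFIIA (Gtf2a1). They were taken by name from a count table of 23201 genes, in which Taf4a stands under the symbol Taf4. All 10 were found there, and each reached 10 CPM (UMIs of a gene when those of the stage are scaled to 1000000) in at least 1 stage.

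Single oocytes were picked from wild type female ICR mice and sequenced with unique molecular identifiers (UMIs), which count molecules rather than reads. Non-growing oocytes (NGO, 46 cells, diameter below 20 μm) came from mice aged 3 to 4 days. Growing oocytes were divided by diameter into GO1 (51 cells, 30 to 45 μm), GO2 (26 cells, 50 to 55 μm) and GO3 (44 cells, 60 to 65 μm), and fully-grown oocytes (FGO, 56 cells) measured over 70 μm. These 4 groups came from mice aged 3 to 4 weeks, so growth and the age of the mouse cannot be told apart in any comparison with NGO. No transgene, treatment or mutant entered these groups.

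TFIID is the complex that recognises core promoters and starts the assembly of RNA polymerase II there. It is built around TBP, which bends the DNA of the TATA box, and TFIIA holds TBP on that DNA. Vertebrates carry relatives of TBP: TBPL2 (also TBP2 or TRF3) shares the DNA-binding core of TBP and is known as the oocyte form, whereas TBPL1 (TRF2 or TLF) does not bind a TATA box and is best known from male germ cells.

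Summed over cells, the 5 stages from NGO to FGO held 25198132, 26752883, 24976634, 49822036 and 64311908 UMIs. Single cells ranged from 22279 to 3898137 UMIs, both extremes falling in GO1, where the 10 deepest cells gave 80.4% of all UMIs. The 4 RNA libraries were not tied to single cells, so each stage counted as 1 sample, no test between stages was possible, and the 95% intervals below cover counting error only. A gene was called changed when the levels of a pair of stages stood 2-fold or more apart and the larger was 10 CPM or more. Calls were made in 6 comparisons only, the 4 consecutive steps, NGO against FGO and GO1 against FGO. CPM gives proportions within a stage and not an amount per oocyte, so a growing oocyte can hold more copies of a transcript whose CPM is lower.

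The identity of the cells was read from 12 oocyte markers, none of which was at 0 in any stage. From NGO to FGO their summed level was 31627, 17293, 18837, 20283 and 25597 CPM, led by Zp3 or Gdf9. Markers of surrounding cells were low beside these. The 10 granulosa genes summed to 15.8, 44.1, 36.4, 35.3 and 20.5 CPM from NGO to FGO, led by Nr5a2 in NGO (6.91 CPM) and by Cyp19a1 in GO1 (16.3 CPM), with Amh at 0.0397 and 0.112 CPM in these stages. The 8 stroma and theca genes summed to 8.65 CPM in NGO, with Dcn the highest at 3.25, and to between 1.05 and 1.59 CPM later, and Lum, Col1a2 and Pdgfra had no UMI in GO1. The 6 blood and endothelium genes summed to 4.64 CPM in NGO and to between 26.7 and 48.8 CPM later, nearly all of it Pecam1 (4.604 CPM in NGO and 37.6 in GO1). In GO1, Cyp19a1 and Pecam1 thus stood above the 14.5 CPM of Tbpl2. The 2 granulosa genes with 10 CPM in NGO or GO1 were called higher in GO1 (Cyp19a1 14.7-fold and Nr5a2 2.10-fold). Pecam1 was called higher too (8.18-fold), beside 20.6% of all genes at that level. The part of somatic cell RNA in the values below was not tested.

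The start sites of the TBP family showed the first difference between its members. RefSeq entries of the GRCm38.p6 build were matched for 8 of the 10 genes (10 entries), with none for Taf4b and Taf7. The 60 bases before the start of 1 RefSeq entry for each TBP family gene are shown, for Tbpl1 a start that lies inside the gene record and for the others its first base, because a TATA box, when present, lies there, and capitals mark the hexamer that resembles such a box.
Tbpl2, chr2:24096596-24096655, minus strand: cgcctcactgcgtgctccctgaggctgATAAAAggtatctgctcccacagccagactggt
Tbp, chr17:15499828-15499887, plus strand: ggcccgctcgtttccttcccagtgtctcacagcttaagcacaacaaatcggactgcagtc
Tbpl1, chr10:22731448-22731507, minus strand: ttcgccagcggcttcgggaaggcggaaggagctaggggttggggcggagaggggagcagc

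Tbpl2 carried ATAAAA beginning 33 bases before its start. Among 32851 mouse promoters, 1.59% held this hexamer and 1.91% the classical TATAAA between 40 and 20 bases before the start on the strand of the gene, and 2.68% held either. None of the other 9 entries held either hexamer in that window, and none of the 10 held TTTAAA (1.22% of promoters). Over 300 bases (250 before to 50 after the start) and on both strands, CGGAAG stood in 5 of the 10 entries against 16.9% of promoters, and GGGCGG stood in 6 against 35.7%. Tbp and Tbpl1 held both hexamers and Tbpl2 held neither. CANNTG, the E-box letters, stood in 9 of the 10 entries and in 72.3% of promoters. These matches describe letters in a window and not sites in use.

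Tbpl2, the oocyte form of TBP, showed the widest swing of the 3 family members. The gene lies on chromosome 2 from 23927241 to 23952115 on the minus strand (NCBIM37, the build named mm9 in the labels). Its level was 177 CPM in NGO (95% interval 172 to 182), 14.5 CPM in GO1 (13.1 to 16.02), 9.21 CPM in GO2 (8.06 to 10.5), 35.04 CPM in GO3 (33.4 to 36.7) and 68.1 CPM in FGO (66.1 to 70.2). Non-growing oocytes were thus the highest, small growing oocytes the lowest, and the order NGO, FGO, GO3, GO1, GO2 had no overlapping neighbours by counting error.

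Single NGO cells held 38.9 to 256 CPM of Tbpl2 with a median of 164. In GO1 the lowest, median and highest cells held 0, 6.77 and 99.8 CPM. In GO2 they held 0, 4.90 and 21.03 CPM. The ranges of NGO and GO1 cells overlapped, but none of the 51 GO1 cells exceeded the NGO median, and 40 of the 46 NGO cells lay above the highest GO1 cell.

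Later in growth the cells parted from GO2 again. GO3 cells held 9.81, 35.2 and 75.2 CPM of Tbpl2 (lowest, median and highest), and FGO cells held 5.87, 70.2 and 197 CPM. All 44 GO3 cells lay above the GO2 median and 34 lay above the highest GO2 cell. Of the 56 FGO cells, 54 exceeded the GO3 median, while only 2 exceeded the median of NGO.

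As ratios of stage levels, Tbpl2 fell 12.2-fold from NGO to GO1 (95% interval 11.004 to 13.6), rose 3.81-fold from GO2 to GO3 (3.31 to 4.39) and was 4.70-fold higher in FGO than in GO1 (4.23 to 5.23). On the log2 scale, Tbpl2 rose 1.93 from GO2 to GO3 by stage sums and 2.18 as a mean over cells. It rose 2.36 without the 10 deepest cells of each stage and 4.10 after thinning, where 1 of 26 GO2 cells held a UMI. Its ratio of FGO to GO3, 1.94 (1.84 to 2.06), stayed just short of the 2-fold limit, which it passed as a mean over cells (log2 1.104), without the 10 deepest cells of each stage (1.01) and after thinning (1.44). The level in FGO remained 2.60-fold (2.49 to 2.71) below that in NGO.

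**Figure D1:**
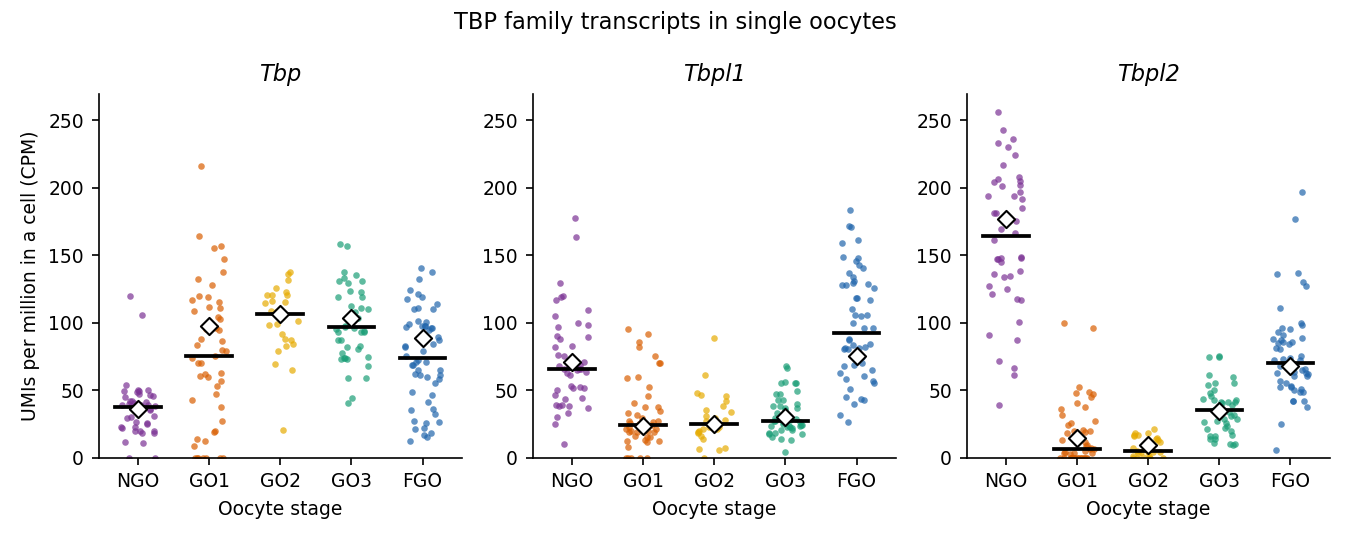
Level of Tbp, Tbpl1 and Tbpl2 in each oocyte (CPM of the cell, linear axis) by stage. Each point is 1 cell, the black line is the median over cells and the white diamond is the CPM of the stage sum. Tbpl2 cells of NGO lie around a median of 164 CPM and those of GO2 at or below 21.03 CPM, while Tbp is lowest in NGO.

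Tbp, which encodes the TBP of canonical TFIID, moved the other way. It lies on chromosome 17 from 15636852 to 15665343 on the plus strand (NCBIM37), where its 3′ part overlaps Pdcd2 on the other strand, and since the strand used in counting is not stated, some counts may belong to that gene. Its level was 35.9 CPM in NGO (33.6 to 38.3), 98.05 in GO1 (94.3 to 101.9), 106.7 in GO2 (102.7 to 110.8), 103.97 in GO3 (101.2 to 106.8) and 88.5 in FGO (86.2 to 90.9). GO2 and GO3 could not be ordered within counting error (ratio of GO3 to GO2 0.974, 0.930 to 1.02), and NGO was the lowest.

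In single cells, Tbp ranged from 0 to 120 CPM in NGO (median 37.8) and from 0 to 216 CPM in GO1 (median 75.2). The GO2 cells held 20.4 to 138.01 CPM with a median of 106.3. The GO3 cells held 40.3 to 158.5 CPM (median 96.7), and the FGO cells 12.4 to 140.98 CPM (median 73.98). Ranges overlapped between all stages, and 37 of the 51 GO1 cells lay above the NGO median.

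The level of Tbp rose 2.73-fold from NGO to GO1 (2.53 to 2.95) and was 2.47-fold (2.30 to 2.65) higher in FGO than in NGO. From GO1 on, its consecutive ratios lay between 0.851 and 1.09, and none passed the limit. The rise from NGO to GO1 shrank from 1.45 on the log2 scale to 0.83, below the limit, when each cell was thinned to 20000 UMIs, so that deep and shallow cells weighed the same.

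Tbpl1, whose product does not bind the TATA box, had a different course, low in all growing oocytes and high at both ends. The gene lies on chromosome 10 from 22423685 to 22451744 on the minus strand (NCBIM37). Its 3′ end overlaps Slc2a12 on the other strand, so, as for Tbp, some counts may belong to the overlapping gene. Its level was 70.8 CPM in NGO (67.5 to 74.1), 23.9 in GO1 (22.1 to 25.9), 24.7 in GO2 (22.8 to 26.8), 30.4 in GO3 (28.9 to 31.98) and 75.8 in FGO (73.7 to 77.99). GO1 and GO2 could not be ordered, and the ratio of FGO to NGO was 1.07 (1.01 to 1.13) by stage sums, or 0.10 on the log2 scale, against 0.44 as a mean over cells.

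The lowest, median and highest NGO cells held 10.3, 65.9 and 177 CPM of Tbpl1. In GO1 they held 0, 24.02 and 95.2 CPM, in GO2 0, 25.1 and 88.6 CPM, and in GO3 3.98, 27.3 and 68.2 CPM. In FGO they held 26.6, 92.2 and 184 CPM. FGO cells stood apart from those of GO3, with 55 of 56 above the GO3 median and 42 above the highest GO3 cell, while 43 lay above the NGO median and 1 above the highest NGO cell.

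Tbpl1 fell 2.96-fold from NGO to GO1 (2.70 to 3.24), and it rose 2.49-fold from GO3 to FGO (2.35 to 2.64). On the log2 scale that rise was 1.32 by stage sums, 1.61 as a mean over cells and 2.09 after thinning. In FGO the 10 deepest cells held 56.9 CPM of Tbpl1 and the other 46 cells 94.6 CPM, and the part of depth in this gap was not tested.

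The balance of the family therefore turned over between NGO and GO1. Tbpl2 gave 62.4% (61.3 to 63.5) of the 7149 family UMIs in NGO, 10.6% (9.65 to 11.7) in GO1, 6.55% (5.75 to 7.42) in GO2, 20.7% (19.8 to 21.6) in GO3 and 29.3% (28.6 to 30.0) in FGO. Tbp gave 12.6%, 71.8%, 75.9%, 61.4% and 38.1% in the same order. Tbpl1 gave 24.9% and 32.6% in NGO and FGO and between 17.5% and 17.9% in growing oocytes.

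When UMIs were divided by transcript length (1891 bases for Tbp, 1315 for Tbpl1 and 1379 for Tbpl2), Tbpl2 had 63.8% in NGO and 8.15% in GO2, so the turnover stood on either scale. UMIs count molecules, so they need not grow with transcript length, and division by length served here and below as a check only. In FGO the order changed under this check and with the weight of cells. Tbp led in the stage sum, whereas per length Tbpl1 had 37.5%, Tbpl2 32.1% and Tbp 30.4%. As a mean over cells and with no division by length, Tbpl1 was at 98.4 CPM, Tbpl2 at 76.8 and Tbp at 74.4, and thinning gave the same order.

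**Figure D2:**
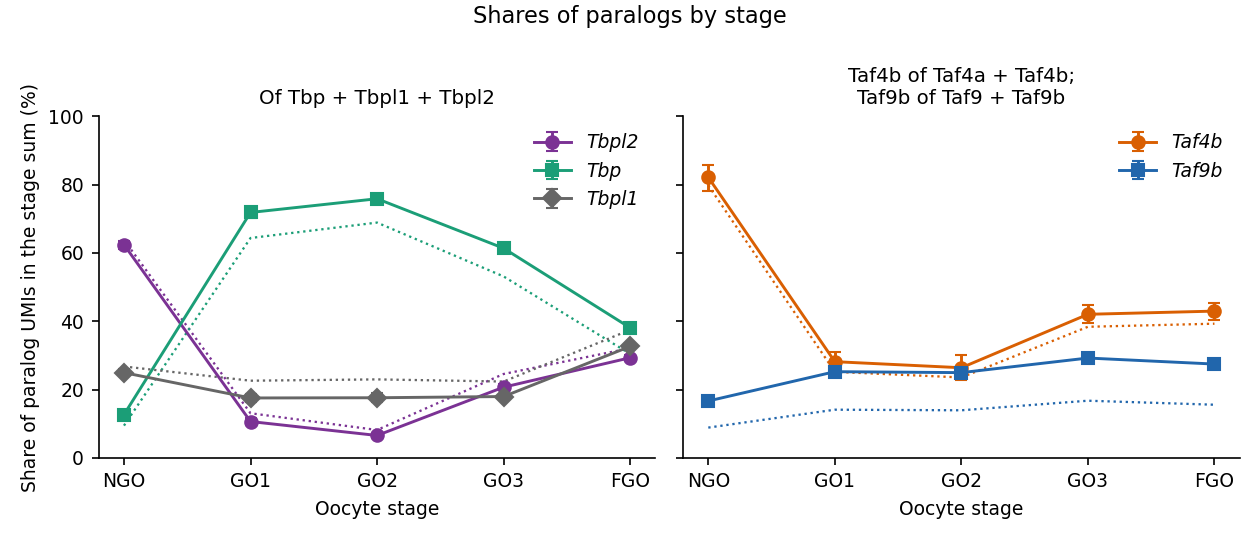
Share of paralog UMIs in each stage sum (percent). Left, Tbp, Tbpl1 and Tbpl2 of their sum. Right, Taf4b of Taf4a and Taf4b, and Taf9b of Taf9 and Taf9b. Bars are exact binomial 95% intervals of the counts, and dotted lines give the same shares after division by transcript length. Tbpl2 and Taf4b lead in NGO (62.4% and 82.1%) and do so in no later stage.

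The same turnover was seen cell by cell, a comparison inside 1 cell that needs no scaling between stages. Tbpl2 had more UMIs than Tbp in 44 of 46 NGO cells, 7 of 51 GO1 cells, 0 of 26 GO2 cells, 1 of 44 GO3 cells and 22 of 56 FGO cells. The count of 0 in GO2 allows a share of up to 11.5% of cells (3 of 26, for counting error only). Under the check per length these counts were 45, 7, 0, 4 and 39. FGO was the stage in which cells were divided.

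The 22 FGO cells with more Tbpl2 held a median of 431893 UMIs in all, against 1180860 in the other 34, so depth moved with this split and its part was not tested. The 7 such GO1 cells were shallow, with 22279 to 162906 UMIs. The split also moved with the cell numbers in the column names. All 7 of these GO1 cells stood at GO1_sc42 or later. In FGO most cells from FGO_sc38 on held more Tbpl2, and most earlier ones did not. What the cell numbers stand for was not given, and their part was not tested. Tbpl1 exceeded Tbp in 41, 8, 2, 1 and 35 cells from NGO to FGO (45, 15, 2, 3 and 44 per length). Tbpl2 exceeded Tbpl1 in 42 NGO cells, 23 GO3 cells and 17 FGO cells by UMIs.

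**Figure D3:**
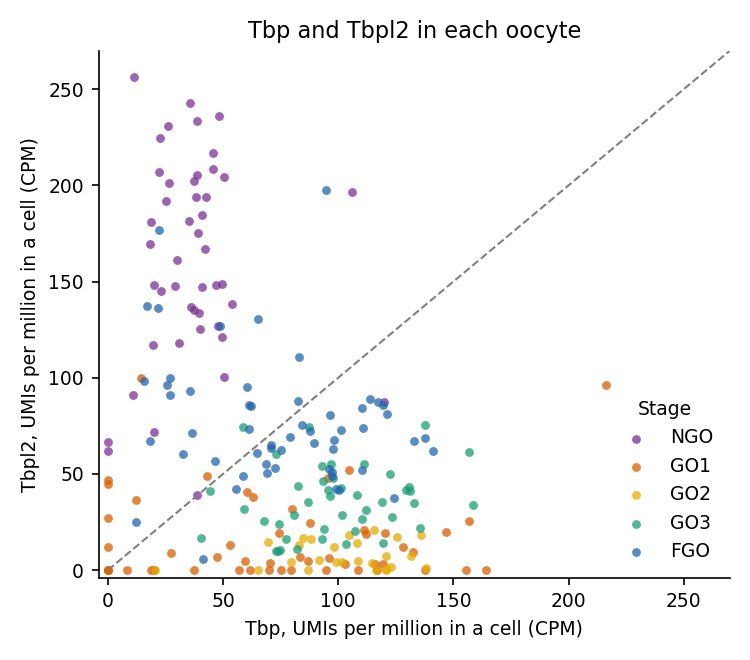
Tbpl2 against Tbp in each of 223 oocytes (both in CPM of the cell, linear axes), coloured by stage, with a dashed line where they are equal. NGO cells lie above the line in 44 of 46 cases and all 26 GO2 cells lie below it, while FGO cells fall on both sides.

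Across the whole table, 20.6% of the 8527 genes with 10 CPM in either stage were called higher in GO1 than in NGO and 25.7% were called lower. These were 1758 and 2193 genes, in place of which TMM factors gave 2043 and 1797 and leaving out the 10 deepest cells of each stage gave 1837 and 3189. Against that background, 4 of the 10 genes were higher (Tbp, Taf3, Taf4a and Gtf2a1) and 3 were lower (Tbpl1, Tbpl2 and Taf1), so calls in this step were common among all genes. The median log2 ratio was 0.73 over the 10 genes and −0.15 over all genes tested. The 10 genes ran from −3.61 to 3.37, so their median does not describe a common shift. It lay between Taf7 (0.49) and Taf9b (0.97), and Taf9b was at 0.32 to 1.13 in the other scalings and cell weights. These moved the median of all genes to between −0.44 and 0.01.

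The TAF subunits are treated next, beginning with the paralogs TAF4 and TAF4B, which occupy the same place in TFIID. TAF4B is the form known for its role in ovarian follicles and germ cells. Taf4a lies on chromosome 2 from 179646851 to 179711351 on the minus strand (NCBIM37). Its 5′ end overlaps the noncoding gene 4921531C22Rik on the other strand, so some of its counts may belong to that gene. Taf4b lies on chromosome 18 from 14941754 to 15058868 on the plus strand (NCBIM37).

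Taf4a was at 2.94 CPM in NGO (2.31 to 3.69), 30.4 in GO1 (28.4 to 32.6), 17.1 in GO2 (15.5 to 18.8), 16.6 in GO3 (15.5 to 17.8) and 13.7 in FGO (12.8 to 14.6). Single NGO cells held 0 to 15.3 CPM (median 1.59), GO1 cells 0 to 299 (median 27.5) and GO2 cells 3.93 to 52.6 (median 16.1). GO3 cells held 5.25 to 38.8 CPM (median 16.6) and FGO cells 0 to 43.9 (median 11.3). GO1 was the highest and most scattered stage, and 34 of its 51 cells exceeded the highest NGO cell.

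Taf4a rose 10.4-fold from NGO to GO1 (8.16 to 13.3), the largest rise among the 10 genes, from only 74 UMIs in NGO. On the log2 scale Taf4a rose 3.37 by stage sums and 4.10 as a mean over cells. In FGO it was 4.65-fold (3.67 to 5.98) above NGO and 2.23-fold (2.02 to 2.45) below GO1. It entered the first comparison through its GO1 level alone, since it was under 10 CPM in NGO.

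Taf4b was at 13.5 CPM in NGO (12.1 to 15.01), 11.9 in GO1 (10.7 to 13.3), 6.13 in GO2 (5.19 to 7.18), 12.1 in GO3 (11.1 to 13.1) and 10.3 in FGO (9.52 to 11.1). Single cells held 0 to 54.4 CPM across the stages, with medians of 11.5, 1.91, 4.78, 11.7 and 7.73. GO2 was the lowest stage, while the intervals of NGO, GO3 and GO1 overlapped. None of its ratios of stage sums passed the limit in the 6 comparisons. Those nearest to it were GO1 over GO2 at 1.95 (1.60 to 2.38) and GO3 over GO2 at 1.97 (1.65 to 2.37), while NGO was not compared with GO2. After thinning, Taf4b was called lower from GO1 to GO2 (log2 −1.84), from NGO to FGO (−1.28) and from GO1 to FGO (−1.53).

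The balance of the pair changed with Taf4a from NGO to GO1 and with Taf4b from GO2 to GO3. Taf4b gave 82.1% (78.1 to 85.7) of the 414 UMIs of both genes in NGO, 28.2% (25.6 to 30.9) in GO1, 26.4% (22.8 to 30.2) in GO2, 42.03% (39.5 to 44.6) in GO3 and 42.96% (40.5 to 45.5) in FGO. Per length (4422 bases for Taf4a and 5149 for Taf4b) these shares were 79.8%, 25.2%, 23.5%, 38.4% and 39.3%. Taf4b had more UMIs than Taf4a in 40 of 46 NGO cells, 6 of 51 GO1 cells, 1 of 26 GO2 cells, 11 of 44 GO3 cells and 17 of 56 FGO cells, and at these low counts 12 GO1 cells were tied.

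**Figure D4:**
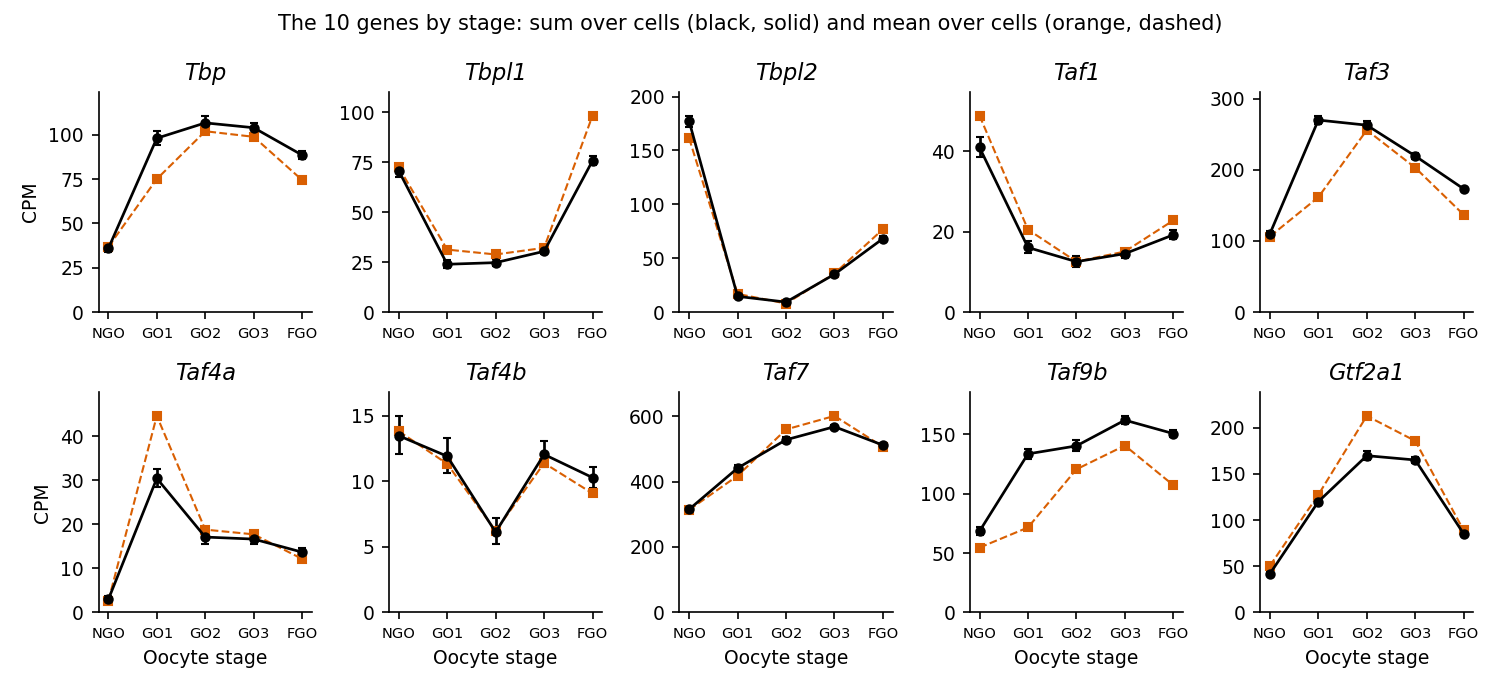
Level of each of the 10 genes by stage (CPM, linear axes that start at 0 and differ between panels). Black circles and solid lines are the stage sums with exact Poisson 95% intervals of the counts, and orange squares with dashed lines give every cell the same weight. The lines part most for Taf3 and Taf9b in GO1, 269.8 against 161 CPM and 133.6 against 71.5 CPM.

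Taf1, the largest TFIID subunit, was the only TAF among the 10 called lower in GO1 than in NGO. It lies on the X chromosome from 98728073 to 98797128 on the plus strand (NCBIM37). Its level was 40.995 CPM in NGO (38.5 to 43.6), 16.1 in GO1 (14.6 to 17.7), 12.5 in GO2 (11.2 to 13.9998), 14.5 in GO3 (13.5 to 15.6) and 19.2 in FGO (18.2 to 20.3). In NGO the lowest, median and highest cells held 23.3, 42.2 and 136.2 CPM, and 38 of the 51 GO1 cells lay below the lowest of them. Median cells held 11.99, 13.2, 15.3 and 21.4 CPM from GO1 to FGO, and the interval of the GO3 sum overlapped those of GO1 and GO2.

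The ratio of NGO to GO1 was 2.55 (2.28 to 2.86) for Taf1, and that of NGO to FGO was 2.13 (1.96 to 2.32). The first was called under every scaling and weighting of cells tried. The second was not called with TMM factors or without the 10 deepest cells of each stage.

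Taf3, whose product reads trimethylated lysine on the tail of histone H3, was lowest in NGO. It lies on chromosome 2 from 9836179 to 9970223 on the minus strand (NCBIM37), and its 3′ end overlaps the noncoding gene Gm13262 on the other strand. Its level was 109.9 CPM in NGO (105.8 to 114.1), 269.8 in GO1 (263.6 to 276.1), 262.6 in GO2 (256 to 269), 219 in GO3 (215 to 223) and 173 in FGO (169.8 to 176). By stage sums GO1 and GO2 overlapped at the top.

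The 10 deepest GO1 cells held 303 CPM of Taf3 and the other 41 cells held 133.3 CPM. The rise from NGO to GO1, 2.45-fold (2.35 to 2.57) by stage sums, was 0.60 on the log2 scale with every cell weighted alike and 0.38 without the 10 deepest cells of each stage, both short of the limit. The log2 ratio of GO2 to GO1 was −0.04 by stage sums and 0.13 to 1.098 in the 5 other scalings and weightings. Median cells from NGO to FGO held 107.1, 128.7, 224, 195 and 126.6 CPM.

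Taf9b, the paralog of Taf9, differed by depth in the same way. It lies on the X chromosome from 103402222 to 103416497 on the minus strand (NCBIM37). Its level was 68.4 CPM in NGO (65.2 to 71.7), 133.6 in GO1 (129.2 to 138.01), 140.3 in GO2 (135.7 to 145.02), 162 in GO3 (158.5 to 166) and 150.7 in FGO (147.7 to 153.7). NGO was the lowest stage, and the ratio of GO1 to NGO was 1.95 (1.84 to 2.07), just under the limit.

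The 10 deepest GO1 cells held 149.9 CPM of Taf9b and the other 41 held 66.5 CPM, beside 97.9 and 46.5 CPM in the 10 deepest and the other 36 cells of NGO. The log2 ratio of GO1 to NGO was 0.97 by stage sums, 0.52 when the 10 deepest cells were left out, 0.39 as a mean over cells and 0.32 after thinning. With DESeq2 and TMM factors it was 1.07 and 1.13, past the limit, and the part of depth was not tested. FGO was 2.20-fold (2.09 to 2.32) above NGO. Taf9, its partner, was at 342 CPM in NGO and between 392 and 422 CPM later. Taf9b made up 16.6% (15.9 to 17.4) of the UMIs of the pair in NGO and 29.2% (28.7 to 29.8) in GO3, or 8.85% and 16.7% per length (2512 bases for Taf9b and 1222 for Taf9). The annotation lists 2 records of Taf9 that start at the same base, so its counts are less certain.

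Taf7, which binds TAF1 and restrains its acetyltransferase activity, passed the limit in none of the 6 comparisons of stage sums. It lies on chromosome 18 from 37800556 to 37803858 on the minus strand (NCBIM37). Its level was 315 CPM in NGO (308 to 322), 441 in GO1 (433 to 449), 528 in GO2 (519 to 537), 568 in GO3 (561 to 574) and 511 in FGO (506 to 517). Every one of the 223 cells held at least 71.02 CPM. The widest of these 6 ratios was 1.62 (1.58 to 1.66) for FGO over NGO, where 55 of 56 FGO cells lay above the NGO median.

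Gtf2a1 encodes the precursor that is cleaved into the alpha and beta chains of TFIIA. It lies on chromosome 12 from 92794356 to 92828927 on the minus strand (NCBIM37). Its level was 41.8 CPM in NGO (39.3 to 44.4), 119.95 in GO1 (115.8 to 124.2), 169.8 in GO2 (164.7 to 174.9), 165 in GO3 (162 to 169) and 85.02 in FGO (82.8 to 87.3). GO2 and GO3 overlapped at the top, and both ends of the series were lower.

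NGO cells held 12.1 to 197 CPM of Gtf2a1 (median 43.01) and GO1 cells 0 to 493 (median 119.6). GO2 cells held 80.1 to 587 CPM (median 209) and GO3 cells 47.7 to 726 (median 151.9). FGO cells held 22.8 to 309.9 CPM (median 77.9). The ranges overlapped widely, yet 44 of 51 GO1 cells lay above the NGO median and 52 of 56 FGO cells lay below the GO3 median.

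Gtf2a1 rose 2.87-fold from NGO to GO1 (2.68 to 3.08) and was 2.03-fold (1.90 to 2.18) higher in FGO than in NGO. Its ratio of GO3 to FGO, 1.94 (1.88 to 2.01), did not reach the limit by stage sums and passed it with DESeq2 or TMM factors or as a mean over cells. Gtf2a2, which encodes the small gamma chain of TFIIA, held 136.4 CPM in NGO, 143.2 in GO1 and 155.4 in GO2. The germ cell paralog Gtf2a1l held 45.7 CPM in NGO, 74.7 in GO1, 93.3 in GO3 and 55.6 in FGO, with no call in the 6 comparisons, which do not set NGO against GO3.

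Of the 10 genes, none was called between GO1 and GO2, where 0.109% of the 7356 genes tested were higher and 3.03% lower (8 and 223 genes, or 14 and 82 with DESeq2 factors, 306 and 908 as a mean over cells, 614 and 1149 after thinning and 682 and 596 without the 10 deepest cells of each stage). From GO2 to GO3 1 was called higher (Tbpl2), against 3.34% of 7334 genes higher and 1.01% lower (245 and 74 genes, or 173 and 120 with DESeq2 factors). From GO3 to FGO 1 was called higher (Tbpl1), against 2.41% of 7622 genes higher and 3.54% lower. These were 184 and 270 genes, or 272 and 419 as a mean over cells and 540 and 705 after thinning. The median log2 ratios of the 10 genes over these steps were 0.00, 0.16 and −0.19, beside −0.11, 0.08 and 0.06 for all genes tested.

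Between the ends of the series, 4 genes were higher in FGO than in NGO (Tbp, Taf4a, Taf9b and Gtf2a1) and 2 were lower (Tbpl2 and Taf1), against 11.3% and 16% of 8132 genes. As a mean over cells, Taf9b (log2 ratio 0.97) and Gtf2a1 (0.81) were no longer called. After thinning, Tbp (0.72), Taf9b (0.47), Gtf2a1 (0.80) and Tbpl2 (−0.99) were not. The median log2 ratio was 0.68 for the 10 genes and −0.12 for all genes tested, and with TMM factors 1206 genes of the table were higher and 916 lower in place of 920 and 1302. From GO1 to FGO, Tbpl1 and Tbpl2 were higher and Taf4a was lower, against 7.98% and 9.03% of 7873 genes (628 and 711, or 1728 and 1009 without the 10 deepest cells of each stage and 1327 and 1222 as a mean over cells). These comparisons reuse the NGO, GO1 and FGO sums and do not count as separate evidence.

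The remaining machinery was read from lists of 65 genes, of which 64 stood in the table. From NGO to GO1, 56 had 10 CPM in either stage; 6 were called higher, 11 lower and 39 neither, against 20.6% and 25.7% of all genes tested, with a median log2 ratio of −0.24 beside −0.15 for all genes. Of 9 further TFIID subunits, Taf5, a scaffold of the complex, rose 2.28-fold from 14.96 to 34.1 CPM and Taf8 rose 2.01-fold from 22.7 to 45.6 CPM. None was called lower, and 7 were not called. Of the 5 paralogs, 2 were tested: Taf5l fell 2.02-fold, and Gtf2a1l was not called.

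Among 15 genes of TFIIB, TFIIE, TFIIF and TFIIH, Gtf2h3 rose 2.03-fold, whereas Gtf2h4, Ercc2 (a helicase of TFIIH) and Gtf2e1 fell 2.85-fold, 2.65-fold and 2.37-fold. Of 11 RNA polymerase II subunits tested, Polr2d rose 3.22-fold (353 to 1136 CPM) and Polr2g 2.74-fold, the pair that forms the stalk of the enzyme, and Polr2h and Polr2e fell 3.01-fold and 2.30-fold. Of 3 genes that regulate TBP, Dr1, which encodes the beta subunit of the repressor NC2 that binds TBP on DNA, fell 4.95-fold from 89.8 to 18.1 CPM. Its partner Drap1 held 64.3 and 70.0 CPM, and the ATPase gene Btaf1 30.9 and 28.8 CPM.

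Of the partners of TBP at RNA polymerase I and III genes, Taf1d fell 2.04-fold and 4 of the 5 tested were not called. In the coactivator SAGA, which shares TAFs with TFIID, Atxn7 rose 4.79-fold from 4.80 CPM, Kat2a, Usp22 and Supt20 fell 2.44-fold, 2.21-fold and 2.15-fold, and 6 of the 10 tested were not called. Of the TFIIA partner and protease, Gtf2a2 was not called and Tasp1 was under 10 CPM in both stages.

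**Figure D5:**
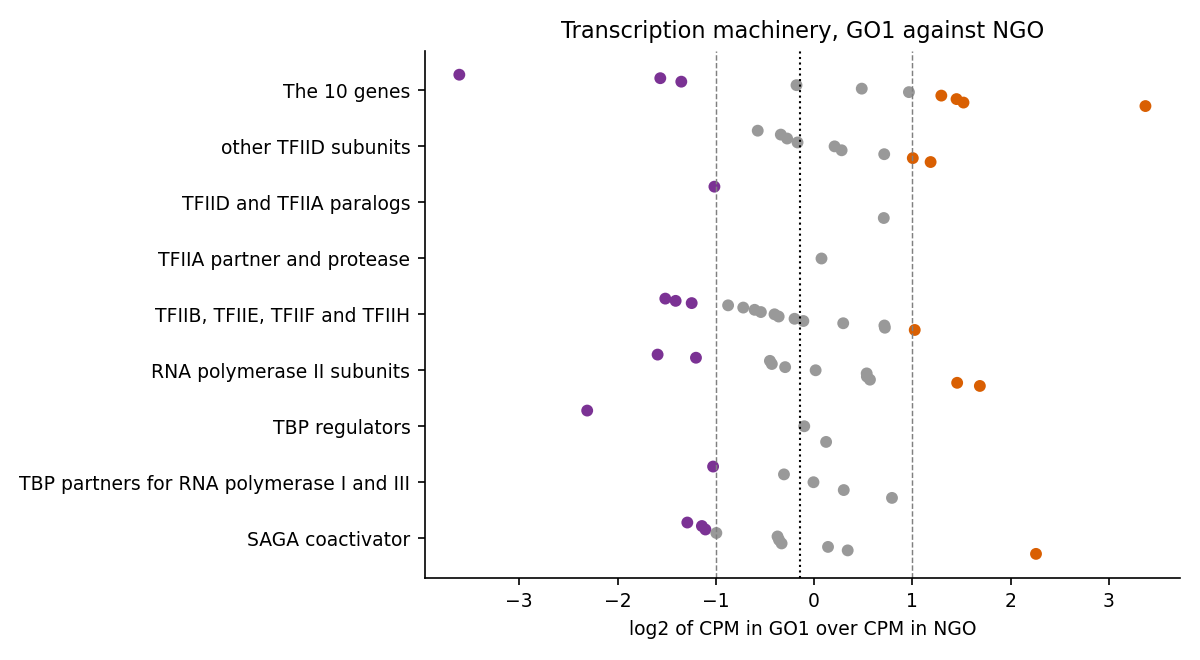
Log2 ratio of the CPM in GO1 to that in NGO for the genes of each list with 10 CPM in either stage. Each point is 1 gene, orange where called higher, purple where called lower and grey otherwise, the dashed lines mark a 2-fold ratio and the dotted line the median of all 8527 genes tested. Among the 10 genes described here, Tbpl2 lies farthest to the left at −3.61 and Taf4a farthest to the right at 3.37.

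In later steps the lists held few calls. Taf5, Trrap and Atxn7 fell 2.13-fold, 2.27-fold and 2.23-fold from GO1 to GO2, 3 of 51 genes tested against 3.03% of all genes. None of 50 genes tested was called from GO2 to GO3, against 3.34% of all genes higher and 1.01% lower. From GO3 to FGO none of 51 was called, against 2.41% of all genes higher and 3.54% lower. Between NGO and FGO, 5 of 56 tested were higher, against 11.3% of all genes, of which Taf8 (2.76-fold), Atxn7 (2.59-fold) and Polr2d (2.42-fold) had the largest ratios. In the same comparison 4 were lower, against 16%, led by Gtf2e1 (2.63-fold), Taf10 (2.37-fold) and Taf5l (2.28-fold). From GO1 to FGO, where 52 were tested, Dr1 rose 2.57-fold and Polr2h 2.18-fold, and Taf5 and Taf10 fell 2.26-fold and 2.11-fold, beside 7.98% of all genes higher and 9.03% lower.

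Genes with the nearest pattern over the 5 stages were sought among 8670 genes by the root mean square difference of log2(CPM + 1) after centring. Tbp was nearest to Txndc9 (0.0290), Cfap97 (0.0324), Ccdc114 (0.0485), Trim75 (0.0512) and Trim13 (0.0529). Tbpl2 was nearest to Mgat2 (0.118), Xpot (0.127), Nipsnap3b (0.155), Klhl21 (0.161) and Acaa1a (0.186). Such distances grow with the width of a swing, so those of Tbpl2 and Tbp cannot be ranked against each other. Mgat2, for example, held 50.5, 2.77, 1.44, 8.13 and 14.7 CPM from NGO to FGO. Taf4b was nearest to Lhfpl2 (0.0825), Ablim1 (0.0842), Bdp1 (0.0872), Exoc5 (0.0890) and Snx14 (0.100). Likeness over 5 stage sums is a description of shape only.

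Oocyte markers gave a scale for these changes. From NGO to GO1, 5 of the 12 fell (Figla 9.11-fold, Ddx4 5.24-fold, Zp2 5.14-fold, Zp3 2.66-fold and Zp1 2.15-fold), 2 rose (Bmp15 6.42-fold and Oosp1 2.67-fold) and 5 were not called. Among all genes tested in this step, 25.7% were called lower and 20.6% higher. Figla, a transcription factor of the early oocyte, went from 597 to 65.5 CPM and stood at 170 CPM in FGO, beside 177, 14.5 and 68.1 CPM for Tbpl2.

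Detection at equal depth gave the same order for Tbpl2. After thinning to 20000 UMIs a cell, a Tbpl2 UMI was seen in 45 of 46 NGO cells, 14 of 51 GO1 cells, 1 of 26 GO2 cells, 21 of 44 GO3 cells and 51 of 56 FGO cells, and with all UMIs in 46, 33, 21, 44 and 56. Granulosa markers, which an oocyte should lack, gave a UMI in 2.61%, 8.43%, 6.54%, 6.59% and 4.82% of thinned pairs of cell and gene. The share for Tbpl2 in GO2 cells, 3.85%, rested on 1 cell and lay below that background. With all UMIs, 80.8% of GO2 cells held Tbpl2 and 43.5% of the granulosa pairs held a UMI. Thinned Tbp was seen in 26, 35, 22, 36 and 41 cells, and thinned Taf4a in 3, 23, 9, 14 and 18.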

How the data were processed

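UMI counts of 223 single oocytes were analysed. Per the labels and the methods of the study, the authors separated reads by cell barcode, aligned them to the mm9 transcriptome with TopHat, removed UMI duplicates and kept cells by genes, transcripts and spike-in content. The deposited values are counts with no normalization. The strand used in counting, and the library of each cell, were not given in the sources used here. A list of barcodes, and the methylation and accessibility data of other cells, were not used here.

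Counts were summed by the stage in the column names and scaled to CPM (pandas 2.3.3, scipy 1.17.1, Python 3.11.15). Totals per stage were 24976634 to 64311908 UMIs, and 3 UMIs were worth 0.0466 to 0.120 CPM. Intervals were exact Poisson for levels and Clopper-Pearson for shares and ratios, all at 95%. With 1 sample per stage no p-value was computed. Alternatives were DESeq2 1.42.0 size factors, edgeR 4.0.16 TMM factors, the mean over cells, leaving out the 10 deepest cells of each stage, thinning to 20000 UMIs, and other limits.

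All 10 genes were described. From the other lists (further TFIID subunits, paralogs, TFIIA partner and protease, TFIIB to TFIIH, RNA polymerase II, TBP regulators, polymerase I and III partners, SAGA), up to 3 called genes in each direction were named per list from NGO to GO1, and up to 3 in each direction over the lists later. From the list of cell type markers, genes were named by level or call. The 10 genes and the lists were chosen with earlier results of these data known. Positions are from GENCODE on NCBIM37, and transcript lengths are those of the transcript with the longest coding sequence. No cells had identical columns.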

Additional observations from a re-analysis of the deposited data

How the results depend on the processing

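Of 60 ratios of the 10 genes, 52 kept their direction in all 5 other scalings and weightings. The Tbpl2 share of TBP family UMIs, in NGO, GO1, GO2 and FGO, was 59.6%, 13.7%, 5.68% and 30.8% as a mean over cells. Without the 10 deepest cells of each stage it was 59.7%, 9.38%, 5.36%, 21.7% and 31.1% from NGO to FGO, at 20000 UMIs a cell 59.5%, 12.5%, 1.56%, 22.5% and 33.4%, and per length 63.8%, 13.1%, 8.15%, 24.5% and 32.1%. The Taf4b share as a mean over cells was 20.3% in GO1 and 39.2% in GO3. Without the deepest cells it was 21.4%, 32.5%, 38.3% and 39.6% from GO1 to FGO, at 20000 UMIs 32% in GO3 and 29.6% in FGO, and per length 25.2%, 38.4% and 39.3% in GO1, GO3 and FGO. Between GO1 and GO2 the count of called genes went from 0 to 2 as a mean over cells, 2 without the deepest cells (Taf3 higher, Taf4a lower), 3 when thinned and 3 at 1.5-fold. Between GO2 and GO3 it went from 1 to 2 at 1.5-fold and 0 at 50 CPM. Between GO3 and FGO it went from 1 to 2 with DESeq2 or TMM factors, without the deepest cells or when thinned, and to 3 as a mean over cells or at 1.5-fold. From NGO to FGO thinning gave 3 calls, of which Taf4a and Taf1 were among the 6 and Taf4b (lower) was not. From NGO to GO1, where 7 genes were called, Taf9b was added by DESeq2 or TMM factors or a 1.5-fold limit, while Taf3 was lost as a mean over cells, without the deepest cells and when thinned, and Tbp was lost when thinned. At 50 CPM, Taf4a and Taf1 were lost from NGO to GO1 and from NGO to FGO, and Taf4a from GO1 to FGO. The causes were not tested. Over the whole table, the share of called genes that were higher in GO3 than in GO2 was 76.8% by stage sums and 59.04% with DESeq2 factors. No paired analysis was possible because cells of a stage carry no library or animal and each stage is 1 sample. Shallow cells limit the thinned values, in which a Tbpl2 UMI was seen in 1 of 26 GO2 cells and a Taf4a UMI in 3 of 46 NGO cells.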

Other observations

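TATA-like letters were counted in the promoters of all genes compared between NGO and GO1. TATAAA or ATAAAA stood 40 to 20 bases before the start of 28 of 1359 genes that were higher in GO1 (2.06%), 25 of 1776 that were lower (1.41%) and 99 of 6788 tested (1.46%). Genes are not independent replicates and no test was made.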
